A study of Bos taurus with 8 samples.

Results

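The signals that pass between the epithelium of the jejunum and the connective tissue beneath it were described through 10 genes of 17932 in the deposited table. They are the Hedgehog ligand IHH, its target and receptor genes GLI1 and PTCH1, the BMP ligands BMP4 and BMP5, the BMP antagonist GREM1, the Wnt agonist RSPO3, the Wnt ligands WNT2B and WNT5A, and the transcription factor FOXL1. The genes were chosen by name, with earlier results of these data known. All 10 were found and matched a bovine RefSeq gene of the same ID and symbol. Jejunal tissue came from Holstein bull calves on day 90 of a feeding trial that began in the first days of life, just after weaning from milk replacer. The CON group (4 calves) received the basal diet without the postbiotic, and the DCLI group (4 calves) received the same diet with 1 g/d of a postbiotic, heat-killed cells of Lactobacillus ingluviei (LIC37). Each calf gave 1 RNA-seq library, written below as CON or DCLI with the number of the calf. All calves were male and from 1 breed, and the only difference between the groups in the labels is the postbiotic.

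In the small intestine, epithelial cells secrete Indian hedgehog, which binds PTCH1 on the stromal cells below and switches on GLI1. Knowledge from mice holds that FOXL1-positive stromal cells near the villus and the crypt mouth make BMPs and WNT5A, which favor differentiation, while stromal cells beneath the crypt make GREM1 and RSPO3, which shield the stem cells from BMPs and amplify Wnt signaling. The comparison of DCLI with CON asks whether feeding the postbiotic went with a different level of these signals. Levels are in TPM, a measure of transcript abundance that takes account of transcript length and can therefore be set side by side between genes.

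All 10 genes passed the filter on low values (TPM of 1 or more in 4 or more libraries) and were tested. The mean TPM over the 8 calves ran from 59.6 for IHH and 40.9 for BMP4 through 22.7 for GREM1 to 8.85 for WNT2B, 8.28 for BMP5 and 7.71 for WNT5A, and then to 5.20 for PTCH1, 3.52 for RSPO3, 3.36 for FOXL1 and 1.3 for GLI1. WNT2B, BMP5 and WNT5A had no fixed order, since WNT2B was above BMP5 in 5 of the 8 calves and BMP5 above WNT5A in 4. RSPO3 was above FOXL1 in only 3 of the 8 calves. WNT5A was above PTCH1, and FOXL1 above GLI1, in all 8. The calf-to-calf range was widest for GREM1 (11.6 times from lowest to highest) and RSPO3 (9.79 times) and narrowest for PTCH1 (1.75 times).

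**Figure D1:**
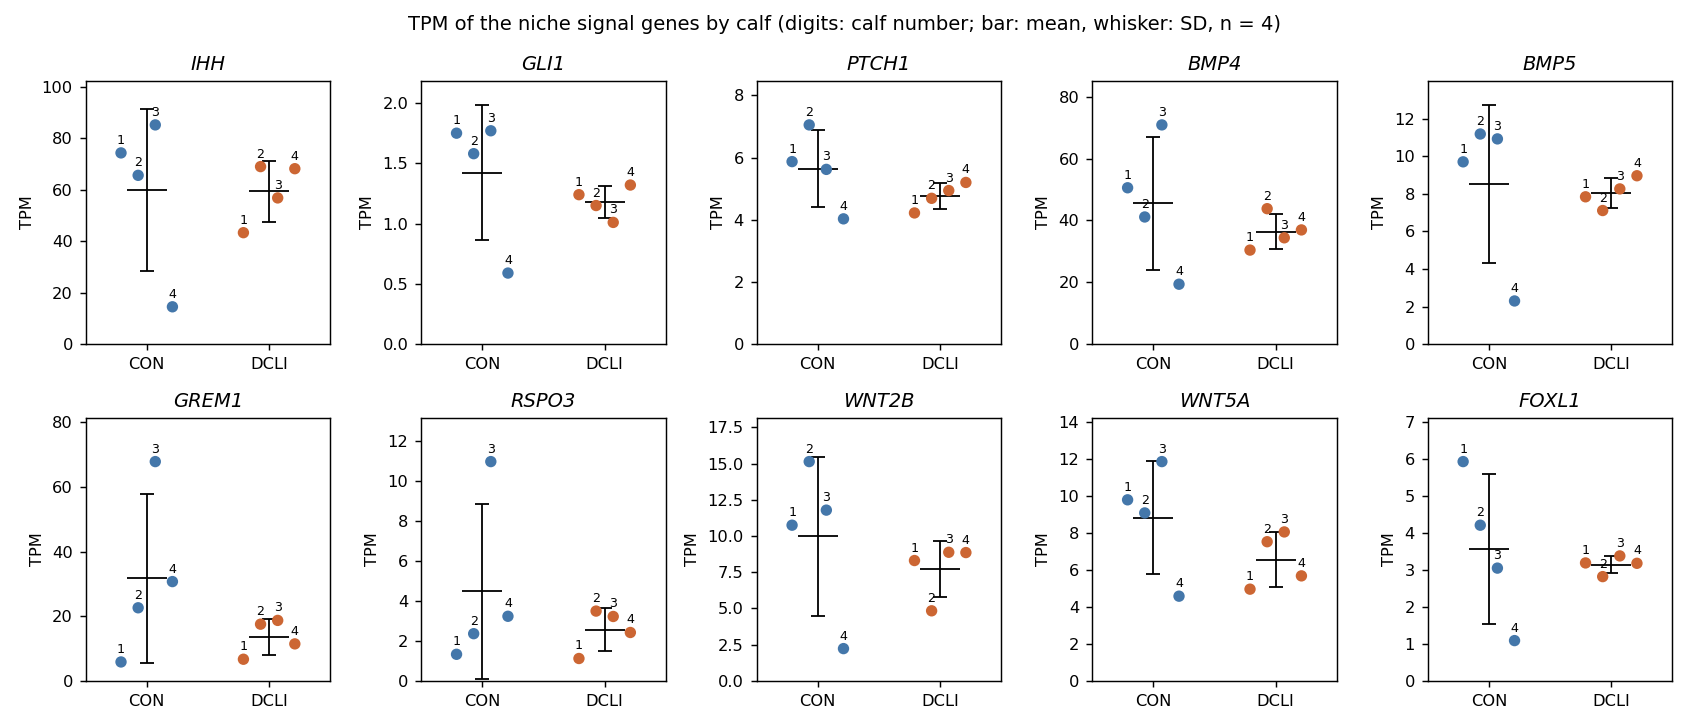
TPM (linear axis from 0) of the 10 genes in each calf, CON in blue and DCLI in orange, with the calf number above each point, the mean as a bar and the SD as a whisker (n = 4). CON4 was the lowest calf for 8 of the 10 genes, and the groups overlapped for all 10.

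Before the groups were compared, the tissue was checked. The summed TPM of 9 epithelial markers was 1037 to 7120, and that of 6 hepatocyte markers was 4.08 to 54.3, although 1 protocol text names liver. CON4 stood apart. The summed TPM of 7 B cell markers was 3149 in CON4 and 19.5 to 40.3 in the other calves, while its epithelial sum was 1037 against 4650 to 7120 in all others. The 10 fibroblast and mesenchyme markers (among them COL1A1 and DCN) summed to 841 to 1473 in CON and to 484 to 814 in DCLI. The mean log2(TPM + 1) of 6 distal small bowel genes was 8.83 to 9.23 in CON1 to CON3 and 8.14 in DCLI3. It was 4.34 to 5.42 in CON4, DCLI1, DCLI2 and DCLI4. That of 7 proximal small bowel genes was 1.853 to 4.985 in CON and 5.122 to 7.036 in DCLI, without overlap. The proximal list holds FABP1, SLC46A1 and ONECUT2, which the paper reported as upregulated. The groups were thus not alike in genes whose level depends on the position along the bowel. The part of position in the levels of the 10 genes was not tested. In bulk tissue, fewer cells of a type and less RNA per cell cannot be told apart.

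**Figure D2:**
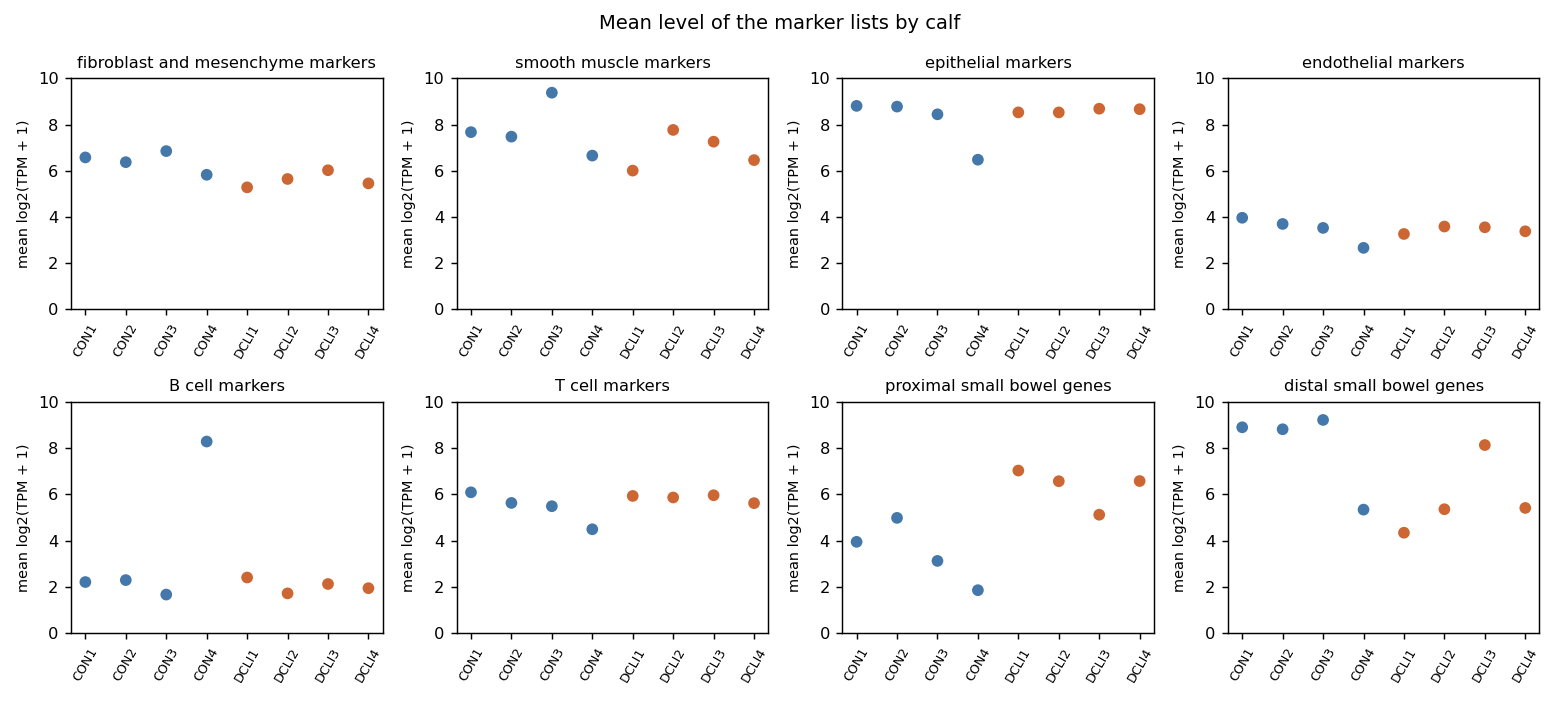
Mean log2(TPM + 1) of 8 marker lists in each calf, CON in blue and DCLI in orange. The B cell level was 8.29 in CON4 and 1.66 to 2.40 elsewhere, and the mesenchyme level was 5.83 to 6.85 in CON and 5.28 to 6.02 in DCLI.

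With all 8 calves, none of the 10 genes passed the test between the diets. By limma on log2(TPM + 1), 0 of the 10 had an adjusted p under 0.05, against a background of 0 of 13228 genes tested (0.0%), and 0 of the 10 had an unadjusted p under 0.05, where 2.99% of all genes did in the lower and 4.09% in the higher direction. The groups overlapped for every gene. The log2 fold change (DCLI minus CON) was below 0 for 8 of the 10 genes, against 56.5% of all genes, with a median of -0.16 beside -0.06 over all genes. CON4 was the lowest of the 8 calves for 8 of the 10 genes, which held for 28.8% of all genes tested, and the exceptions were GREM1 and RSPO3. CON3 was the highest calf for 6 of the 10, against 19.0% of all genes. The comparison was therefore also read without CON4. Leaving out the lowest calf raises the CON mean, so the log2 fold changes of those 8 genes had to fall. CON4 was lowest for only 28.8% of all genes, so the shares of all genes without CON4 are not a like background. The same applies below to any other gene for which CON4 was lowest. CON4 was left out for its low values in these same genes. A p between the diets without CON4 is therefore a description and no support for a difference. With all 8 calves the smallest exact permutation p of the 10 genes was 0.29, for PTCH1. All 10 log2 fold changes were then below 0 (48.7% of all genes), with a median of -0.38 beside 0.01 over all genes. Without CON4, 4 of the 10 had an unadjusted p under 0.05 in the lower direction, where 5.86% of all genes did, and 0 had an adjusted p under 0.05. For 5 of the 10, GLI1, PTCH1, BMP5, WNT2B and WNT5A, the 3 other CON calves all lay above the 4 DCLI calves, which held for 6.31% of all genes, and for 0 of the 10 they all lay below (3.41% of all genes).

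**Figure D3:**
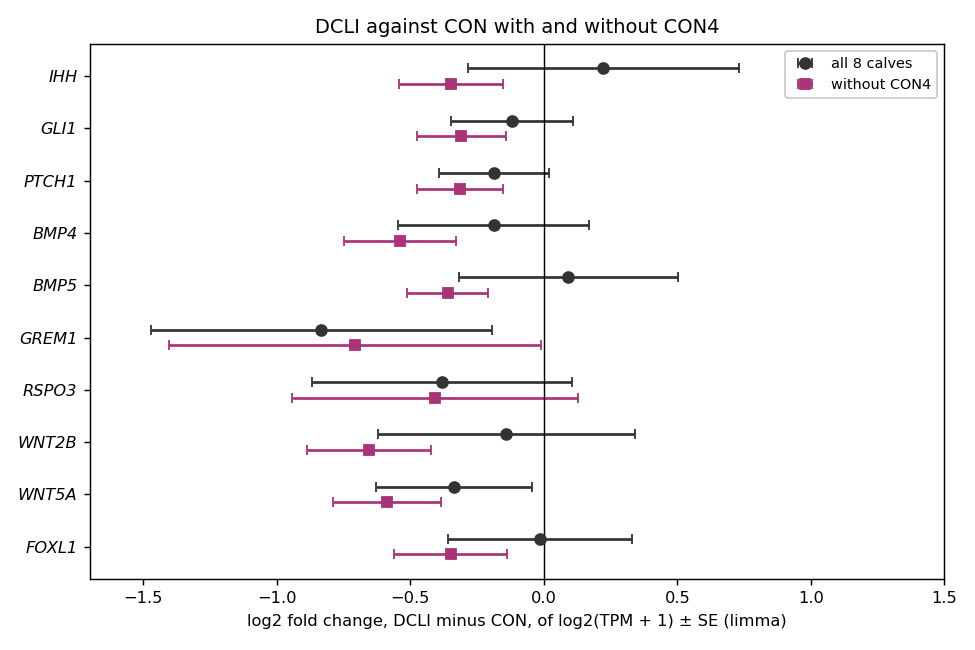
Log2 fold change (DCLI minus CON, on the log2(TPM + 1) scale) with its standard error from limma, for all 8 calves (circles) and without CON4 (squares). IHH moved from 0.22 to -0.35 and BMP5 from 0.09 to -0.36 when CON4 was left out, and all 10 squares lie below 0.

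IHH (gene ID 522714), the ligand, was the most abundant of the 10. Its TPM was 74.3 in CON1, 65.6 in CON2, 85.2 in CON3 and 14.5 in CON4, and 43.3, 69.0, 56.8 and 68.2 in DCLI1 to DCLI4. Thus 7 of the calves lay within 43.3 to 85.2, and only CON4 was far below. The mean was 59.3 ± 12.03 (SD, n = 4) for DCLI and 59.9 ± 31.3 (SD, n = 4) for CON. limma gave a log2 fold change of 0.22 with a standard error of 0.51 (adjusted p = 0.90). Without CON4 the CON mean was 75.0 ± 9.82 (SD, n = 3) and the log2 fold change -0.35 (standard error 0.19, limma adjusted p = 0.57). Because IHH is an epithelial product, it was also set against the epithelial markers, a description added after the values were seen. Per 1000 TPM of those markers, IHH was 10.4, 10.3, 18.3 and 14.0 in CON1 to CON4 and 8.45, 12.6, 9.74 and 11.6 in DCLI1 to DCLI4, so that CON4 was not low on this scale.

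GLI1 (gene ID 517588), the transcription factor that Hedgehog signaling induces, had a low TPM in every calf. It was 1.75, 1.58 and 1.77 in CON1 to CON3, 0.59 in CON4, and 1.24, 1.15, 1.01 and 1.32 in DCLI1 to DCLI4. DCLI therefore lay between CON4 and the other CON calves, and the fold change on the log2 scale was -0.12 (standard error 0.23, limma adjusted p = 0.88). Without CON4 it was -0.31 (standard error 0.17, limma adjusted p = 0.56), and the exact 2-sided permutation test of 3 against 4 calves gave p = 0.029, the smallest it allows.

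PTCH1 (gene ID 520994), the Hedgehog receptor and itself a target of the pathway, was the steadiest of the genes. Its TPM was 5.87, 7.05, 5.62 and 4.03 in CON1 to CON4 and 4.22, 4.69, 4.94 and 5.20 in DCLI1 to DCLI4. It followed the same order as GLI1, with DCLI between CON4 and the other CON calves. Its log2 fold change was -0.19 (standard error 0.21, limma adjusted p = 0.80), and -0.31 without CON4 (standard error 0.16, limma adjusted p = 0.55, exact permutation p = 0.029). The TPM of PTCH1 is a sum over 5 rows. In the first row, with 66.8% of the mean TPM, CON1 was at 3.09 and DCLI3 at 4.05.

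The other Hedgehog genes gave no test past the threshold either. Of 14 in the list, 9 were tested, 0 passed at an adjusted p under 0.05 and 0 at an unadjusted p under 0.05, and 7 had a log2 fold change below 0 (56.5% of all genes) with a median of -0.25. Without CON4 all 9 were below 0 (48.7% of all genes), and SMO and BOC, a Hedgehog co-receptor, had a limma unadjusted p of 0.028 and 0.016, with 0 past the adjusted threshold. BOC is named after its values were seen. The most abundant were GAS1, a Hedgehog co-receptor, with a mean TPM of 8.87, and SMO, the transducer that PTCH1 restrains, with 6.72. SMO had a TPM of 8.26, 6.46, 13.7 and 5.01 in CON1 to CON4 and 3.77, 7.19, 5.30 and 4.13 in DCLI1 to DCLI4. The ligands SHH and DHH stayed at or below 1.87 and 0.32 in every calf, far below IHH. Neither passed the filter, so neither was tested. SHH had a TPM of 0.38, 0.65, 0.58 and 0.18 in CON1 to CON4. In DCLI1 to DCLI4 it was 1.06, 1.87, 0.70 and 1.07, higher without overlap, as were 2.28% of the genes tested.

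BMP4 (gene ID 407216), a BMP ligand of stromal cells, had a TPM of 50.6, 41.1, 70.9 and 19.4 in CON1 to CON4 and 30.4, 43.8, 34.4 and 36.9 in DCLI1 to DCLI4. CON3 was highest and CON4 lowest, with all DCLI calves between them. The log2 fold change was -0.19 (standard error 0.36, limma adjusted p = 0.88) and -0.54 without CON4 (standard error 0.21, limma adjusted p = 0.46), where DCLI2 still lay above CON2. Without CON3 it was 0.07.

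The deposited table holds BMP4 in 7 rows, which share the gene ID and carry no transcript name. The first row held 50.9% of the gene's mean TPM and the second 26.0%. The first row had a TPM of 15.8, 17.1, 46.8 and 4.40 in CON1 to CON4 and 19.8, 27.8, 17.6 and 17.6 in DCLI1 to DCLI4, with means of 21.0 and 20.7. The second had 22.1, 15.3, 10.04 and 9.13 in CON and 5.67, 4.78, 7.72 and 10.5 in DCLI, with means of 14.1 ± 5.95 (SD, n = 4) and 7.17 ± 2.54 (SD, n = 4). The group means of BMP4 thus differed in the second row more than in the first, although the groups overlapped in both. The first row made up 47.8% to 65.0% of BMP4 in the DCLI calves and 31.2%, 41.6%, 66.0% and 22.7% in CON1 to CON4. How RSEM divided the reads among rows of 1 gene cannot be checked from TPM, and this difference was not tested.

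BMP5 (gene ID 507682), a BMP ligand of villus-side stromal cells in mice, had a TPM of 9.70, 11.2, 10.9 and 2.30 in CON1 to CON4 and 7.84, 7.11, 8.26 and 8.96 in DCLI1 to DCLI4. Apart from CON4, every CON calf was above every DCLI calf. For BMP5 the log2 fold change was 0.09 (standard error 0.41, limma adjusted p = 0.95), and it turned to -0.36 without CON4 (standard error 0.15, limma adjusted p = 0.48, exact permutation p = 0.029).

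GREM1 (gene ID 539079), which binds BMPs and keeps them from their receptors, differed most between calves. Its TPM was 5.86 in CON1, 22.6 in CON2, 67.8 in CON3 and 30.7 in CON4, and 6.70, 17.5, 18.7 and 11.5 in DCLI1 to DCLI4. CON1 was the lowest of all calves and CON3 the highest, so the CON group spanned the whole DCLI range. GREM1 had the largest absolute log2 fold change of the 10 genes, -0.83, with a standard error of 0.64 (limma adjusted p = 0.76, exact permutation p = 0.31), and it was -0.33 without CON3, -1.44 without CON1 and -0.71 without CON4. The ratio of GREM1 to BMP4 was 0.12, 0.55, 0.96 and 1.58 in CON1 to CON4 and 0.22 to 0.54 in the DCLI calves. CON4 thus had the highest ratio of antagonist to ligand, and CON1 the lowest.

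Among the other BMP genes, 3 antagonists of the 9 tested had an unadjusted p under 0.05, all lower in DCLI (2.99% of all genes), and 0 had an adjusted p under 0.05. FSTL3, a follistatin-like protein, had a TPM of 7.85, 5.85, 10.1 and 5.78 in CON1 to CON4 and 4.14, 3.68, 5.62 and 3.24 in DCLI1 to DCLI4, without overlap (log2 fold change -0.69, standard error 0.24, limma adjusted p = 0.69). FST, follistatin, was at 5.42, 1.72, 4.26 and 1.13 in CON and 0.56 to 1.34 in DCLI, and BMPER, a secreted modulator of BMPs, at 2.43 to 3.76 in CON and 1.48 to 2.60 in DCLI. Both overlapped between the groups, with log2 fold changes of -0.96 and -0.54 (limma adjusted p = 0.70 for both). All 9 tested antagonists had a log2 fold change below 0 without CON4 (48.7% of all genes), with a median of -0.50.

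Of 6 other genes tested from the list of BMP ligands, 4 had a log2 fold change above 0, where 56.5% of all genes were below 0. The 4 include BMP1 (0.03), which is a protease and not a ligand. BMP8B was the only one of the 6 with an unadjusted p under 0.05. Its TPM was 2.09, 10.6, 0.24 and 0.09 in CON1 to CON4 and 15.04, 9.42, 6.90 and 10.2 in DCLI1 to DCLI4 (log2 fold change 2.06, standard error 0.69, limma adjusted p = 0.69). Only CON2 reached the DCLI range. Of the 12 receptors and SMADs tested, 8 were above 0 and 4 below (56.5% of all genes were below), and 0 had an unadjusted p under 0.05. Of the 5 BMP target genes tested, 4 had a log2 fold change below 0 (56.5% of all genes), with a median of -0.35. None of the 5 had an unadjusted p under 0.05. ID2, ID3 and ID4, like ID1 inhibitors of DNA binding that BMPs induce, were at -0.35, -0.47 and -0.45, and HHEX at -0.35. ID1 was the only target above 0 (0.52). Without CON4, ID1 was at -0.20, ID2 at -0.79 (limma unadjusted p = 0.036), ID3 at -0.20, ID4 at -0.63 and HHEX at 0.05. ID3 had a TPM of 234 in CON4 and 79.9 to 118 in the other calves. ID2, ID4 and HHEX are named after their values were seen. ID1 had a TPM of 231, 201, 305 and 32.5 in CON1 to CON4 and 181 to 267 in DCLI, so that apart from CON4 the groups lay in the same range.

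RSPO3 (gene ID 534650), which strengthens Wnt signaling through LGR receptors, had a TPM of 1.33, 2.36, 10.96 and 3.23 in CON1 to CON4 and 1.12, 3.49, 3.22 and 2.42 in DCLI1 to DCLI4. CON3 was far above all other calves, and the remaining 7 lay within 1.12 to 3.49. Its log2 fold change was -0.38 (standard error 0.49, limma adjusted p = 0.83) and 0.09 without CON3. CON3 also held the highest summed TPM of 9 smooth muscle markers, 10811 against 1125 to 4278 in the others, and of 7 enteric glia and neuron markers, 50.0 against 12.6 to 26.8. Their part in the level of RSPO3 and GREM1 was not tested. With the smooth muscle level as a covariate, the log2 fold change was -0.27 for GREM1 and 0.20 for RSPO3.

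WNT2B (gene ID 445420), a Wnt ligand of stromal cells that supports crypt stem cells, had a TPM of 10.8, 15.1, 11.8 and 2.23 in CON1 to CON4 and 8.31, 4.84, 8.88 and 8.86 in DCLI1 to DCLI4. DCLI2 was well below the other DCLI calves, which lay within 8.31 to 8.88. The log2 fold change was -0.14 (standard error 0.48, limma adjusted p = 0.93) and -0.66 without CON4 (standard error 0.23, limma adjusted p = 0.43, exact permutation p = 0.029), the largest change of value that leaving out CON4 gave apart from IHH.

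WNT5A (gene ID 530005), a ligand that acts largely without beta-catenin, had a TPM of 9.81, 9.10, 11.9 and 4.59 in CON1 to CON4 and 4.97, 7.54, 8.07 and 5.69 in DCLI1 to DCLI4. CON4 and DCLI1 were the lowest calves, and CON1 to CON3 were above all DCLI calves. For WNT5A the log2 fold change was -0.34 (standard error 0.29, limma adjusted p = 0.77) and -0.59 without CON4 (standard error 0.20, limma adjusted p = 0.42, exact permutation p = 0.057).

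FOXL1 (gene ID 538955), the forkhead factor that marks subepithelial stromal cells in mice, had a TPM of 5.93, 4.21, 3.05 and 1.09 in CON1 to CON4 and 3.19, 2.82, 3.38 and 3.18 in DCLI1 to DCLI4. The DCLI calves were close together, with an SD of 0.23 against 2.03 in CON. The log2 fold change was -0.02 (standard error 0.35, limma adjusted p = 0.99), it was 0.01 under quantile normalization, and it was -0.35 without CON4.

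Of the other Wnt ligands, only WNT11 and WNT4 passed the filter, 2 of 16 in the table. WNT11 had a mean TPM of 18.5, above both WNT2B and WNT5A, with 21.6, 14.6, 17.3 and 6.18 in CON1 to CON4 and 19.5 to 26.1 in DCLI. The R-spondin RSPO1 was below every CON calf in every DCLI calf, at 1.41, 1.49, 3.59 and 4.31 in CON1 to CON4 and 0.58, 0.95, 1.05 and 0.50 in DCLI1 to DCLI4 (log2 fold change -0.99, standard error 0.30, limma adjusted p = 0.69). Like GREM1, RSPO1 was not low in CON4. In all, the groups did not overlap in the lower direction for 3.11% of genes tested and in the higher direction for 2.28%.

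Among the 12 Wnt receptors tested, FZD3 and FZD6 had an unadjusted p under 0.05 in the higher (4.09% of all genes) and FZD7 in the lower direction (2.99%), and 0 had an adjusted p under 0.05. FZD3, a frizzled receptor, was at 4.69 to 8.31 in CON and 9.06 to 11.8 in DCLI (log2 fold change 0.71, standard error 0.23, limma adjusted p = 0.69), and FZD6 at 1.65 to 2.65 and 3.13 to 4.51, neither with overlap. FZD7 was at 2.52 to 6.30 in CON and 1.65 to 2.96 in DCLI. Without CON4 the limma unadjusted p was 0.062 for FZD6 and 0.067 for FZD7. Of the 8 genes tested from the list of secreted Wnt inhibitors, 7 had a log2 fold change below 0 (56.5% of all genes). Without CON4, 6 of the 8 did (48.7% of all genes). The 7 include KREMEN1 (-0.34), which is a membrane receptor and not secreted. SFRP5, which binds Wnt ligands, was at 2.00, 3.39, 9.75 and 13.2 in CON1 to CON4 and 1.32 to 2.85 in DCLI (log2 fold change -1.12, standard error 0.48, limma adjusted p = 0.70). Without CON4 its log2 fold change was -0.76 (limma unadjusted p = 0.10). The exception among the 8 with all calves was NOTUM, an enzyme that inactivates Wnt ligands. Its TPM was 0.68, 0.85, 0.65 and 0.54 in CON1 to CON4 and 4.19, 3.72, 3.13 and 2.81 in DCLI1 to DCLI4, without overlap. NOTUM had the smallest unadjusted p of all genes tested (3.9e-05). Its log2 fold change was 1.40 (standard error 0.19, limma adjusted p = 0.26). The paper reported NOTUM among its significantly upregulated genes, from a DESeq2 test that was not repeated here.

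Genes of the stromal cells that make these signals were read next. Of 14 tested, 2 had an unadjusted p under 0.05, both lower in DCLI (2.99% of all genes), and 0 had an adjusted p under 0.05. The log2 fold change was below 0 for 9 of the 14 (56.5% of all genes) and above 0 for 5, with a median of -0.28. SOX6 was the highest, at 0.80. Without CON4, 13 of the 14 were below 0 (48.7% of all genes), and SOX6 was at 0.37. ACKR4, a chemokine scavenger of crypt-base stromal cells in mice, had a TPM of 3.84, 5.35, 4.14 and 4.80 in CON1 to CON4 and 0.54, 2.11, 4.29 and 0.71 in DCLI1 to DCLI4, so DCLI3 lay within the CON range (log2 fold change -1.10, standard error 0.38, limma adjusted p = 0.69). CD81, a tetraspanin of these cells and of many others, was at 247 to 566 in CON and 206 to 225 in DCLI, highest in CON4. Without CON4, 7 of the 14 had an unadjusted p under 0.05 in the lower direction, where 5.86% of all genes did, and 0 had an adjusted p under 0.05. Among them were PDGFRA, a growth factor receptor of stromal cells, and FOXF1, a forkhead factor that Hedgehog signaling induces in mice, with log2 fold changes of -0.55 and -0.81 without CON4 and -0.40 and -0.48 with all calves. PDGFRA, FOXF1 and SOX6 are named after their values were seen.

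The markers of the mesenchyme as a whole were read in the same way. All 10 fibroblast and mesenchyme markers had a log2 fold change below 0 (56.5% of all genes), with a median of -0.95. Of these, 6 had an unadjusted p under 0.05 in the lower direction (2.99% of all genes) and 0 an adjusted p under 0.05. Without CON4 the median was -1.17, beside -0.38 for the 10 signal genes. Set against the summed TPM of these markers, nearly all genes were higher in DCLI, since the same lower sum divides every gene. The mean was higher in DCLI for 9 of the 10 signal genes, where it was for 91.0% of all genes tested, and without CON4 for 9 of the 10 and 97.3% of all genes. GREM1 was the exception in both. The groups did not overlap for 2 of the 10, IHH and WNT5A, against 30.8% of all genes, and without CON4 also for 2 of the 10, against 70.7%. WNT5A per 1000 TPM of the markers was 7.81, 8.74, 8.07 and 5.46 in CON1 to CON4 and 10.3, 12.5, 9.91 and 11.5 in DCLI1 to DCLI4. A share near or under that of all genes says nothing particular of the signal genes, and the part of stromal content in the values per library was not tested.

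Pairs of genes were compared across the 8 calves, in a family of 8 relations. GREM1 and RSPO3 had the highest Pearson's r of the 8, r = 0.92 (exact permutation p = 0.0018, adjusted p = 0.015) and Spearman's rho = 0.74 (exact permutation p = 0.046, adjusted p = 0.12), a rho below that of GLI1 with PTCH1 and of IHH with GLI1. Without CON1 and CON3, the calves farthest from the median of GREM1, r was 0.80, and without CON4 it was 0.95 (exact permutation p = 0.0048, adjusted p = 0.038). Both genes were lowest in CON1 and DCLI1 and highest in CON3.

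The ligand IHH and its target GLI1 had r = 0.87 (exact permutation p = 0.0074, adjusted p = 0.030) and rho = 0.79 (exact permutation p = 0.028, adjusted p = 0.11), with r = 0.80 without CON4 and DCLI1. Without CON4 alone r was 0.63 (exact permutation p = 0.12, adjusted p = 0.26), so the relation was no longer past the threshold. The same held for GLI1 with PTCH1 (r = 0.77, exact permutation p = 0.025, adjusted p = 0.039, rho = 0.81, exact permutation p = 0.022, adjusted p = 0.11), which had r = 0.72 without CON3 and CON4 and r = 0.68 without CON4. GLI1 with FOXL1 and FOXL1 with BMP5 also lost the threshold without CON4. IHH with PTCH1 did not pass with all calves (r = 0.66, exact permutation p = 0.075, adjusted p = 0.097) and had r = 0.18 without CON4 and DCLI1. Nor did FOXL1 with WNT5A (r = 0.62, exact permutation p = 0.085, adjusted p = 0.097). Outside the family, untested, r was 0.94 for IHH with BMP5, 0.90 for IHH with BMP4 and 0.95 for BMP5 with WNT2B. Without CON4 these were 0.54, 0.88 and 0.93. BMP4 and its antagonist GREM1 had r = 0.20 (exact permutation p = 0.65, adjusted p = 0.65) and rho = 0.02 (exact permutation p = 0.98, adjusted p = 0.98), with r = -0.03 without CON3 and CON4. Within a diet there are only 4 calves, too few for a relation.

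**Figure D4:**
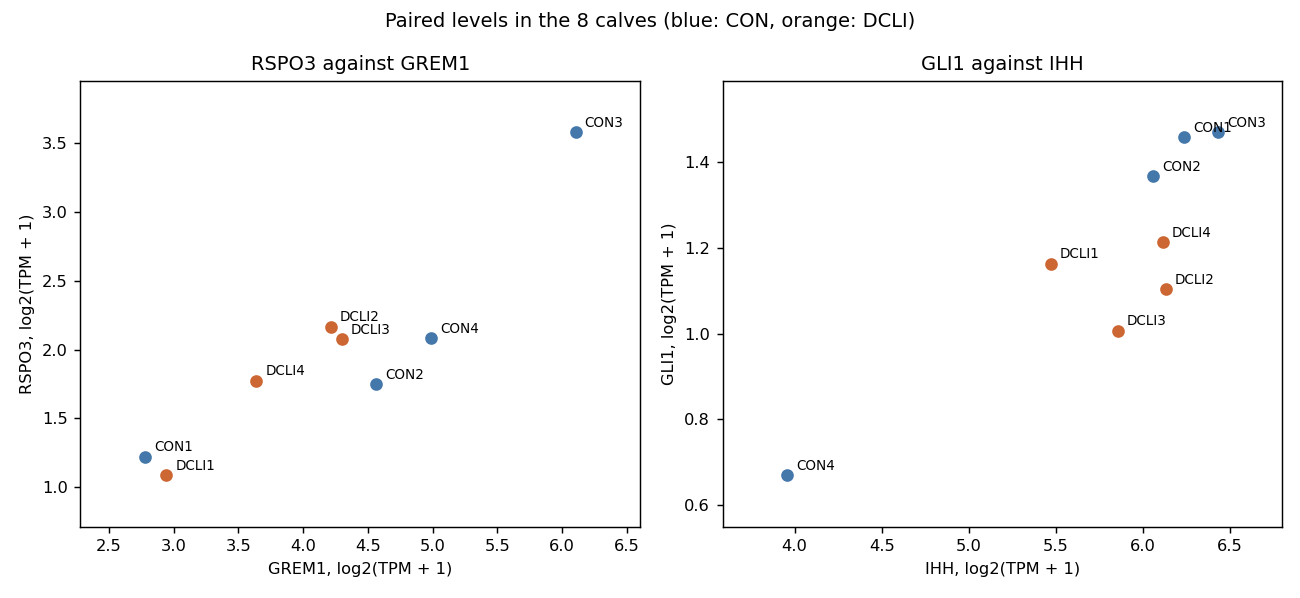
RSPO3 against GREM1 (left) and GLI1 against IHH (right) in the 8 calves, both axes in log2(TPM + 1), CON in blue and DCLI in orange. GREM1 and RSPO3 lay along 1 line with r = 0.92, whereas for IHH and GLI1 (r = 0.87) CON4 lay far from the rest.

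The genes whose levels ran most alike over the 8 libraries, among 13228 tested, were listed as a description. For BMP4 they were HSPG2 (r = 0.99), WBP1L (0.98) and WISP1 (0.98), and without CON4 the first was FOXF2 (0.99). FBLN2 was first for PTCH1 both with and without CON4 (r = 0.98 for both). For GREM1 they were RDX, GARNL3 and CILP, and for RSPO3 CFL2, NLGN3 and LRRN1. IHH ran with LRRC26, IL17RA and BCR, WNT5A with SLC51B, CCDC3 and COL6A3, and FOXL1 with CLEC4G, BSG and LOC112441463. With 8 points and this many genes, high values of r are common, and CON4 was 1 of the points.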

How the data were processed

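Jejunal RNA of 8 calves (4 CON, 4 DCLI, by the treatment label) was sequenced from poly(A)-selected libraries. SOAPnuke (read filtering), HISAT2 (alignment) and RSEM (quantification) were used by the authors, and the deposited values are TPM per row and library, without pooling. The deposited estimated counts are filled in 76 of 50681 rows and did not follow the TPM beside them (median r = -0.17), so they were not used, and the DESeq2 test of the authors was not repeated. TPM was summed by gene ID to 17932 genes, of which 17696 matched RefSeq of assembly ARS-UCD2.0, used for symbols only. TPM keeps no depth, so no error other than that between calves can be given.

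Between 12825 and 13552 genes per library reached a TPM of 1. The main test was limma 3.58.1 (R 4.3.3, eBayes with trend) on log2(TPM + 1). It covered the 13228 genes at 1 TPM or more in 4 or more libraries, and Benjamini-Hochberg adjustment was over this whole set. A pseudocount of 1 understates the change of low genes. Single genes were compared with exact 2-sided permutation tests of log2(TPM + 1) over 70 assignments (smallest p 0.029), or 35 without CON4 (smallest p 0.029). On simulated data with independent genes and normal errors, limma called 8, 38, 43 and 49 of 50 genes changed by 1, 2, 3 and 5 on the log2 scale. It also called 6 unchanged genes. The changed genes were drawn from those with a mean log2(TPM + 1) above 2, and GLI1 lay below that. No outlying calf such as CON4 was simulated. Scaling, pseudocount, filter, variance model, weights, block, covariates and left-out calves were varied in 21 alternatives. The 10 genes and the gene lists were chosen with earlier results of these data known. Besides the 10, the text names from each signal list up to 4 tested genes with an unadjusted p under 0.05 and examples among the 2 most abundant. SHH, DHH, BOC, NOG, CHRD, BAMBI, ID2, ID4, HHEX, KREMEN1, PDGFRA, FOXF1 and SOX6 are named after their values were seen. For each of the 10, the 3 genes with the highest r were taken, and some are given. A planned search for promoter motifs was not run. Python 3.11.15 with scipy 1.17.1 and matplotlib 3.10.9 was used.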

Additional observations from a re-analysis of the deposited data

Results flagged for a closer look

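In 4 of 20 sets of 4 calves (each of the 10 genes in each diet), 1 calf lay apart from the other 3. The gap on the log2(TPM + 1) scale was above Dixon's limit for 4 values, which chance gives in about 1 set of 20. The sets were not independent, since the same calves gave all 10 genes, so their count is not an excess over chance. CON4 was the low calf for IHH (0.85 of the range), GLI1 (0.872) and BMP5 (0.901). DCLI2 was the low calf for WNT2B in DCLI (0.887), with a TPM of 4.84 against 8.31 to 8.88.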

How the results depend on the processing

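No adjusted p of the 10 genes was under 0.05 in any of the 21 alternatives (smallest 0.21). Of all genes tested, 0 passed with all calves, 9 without CON2 and 1 without DCLI1. With the calf number as a replicate block the log2 fold changes were as in the report (IHH 0.22) and 0 genes passed. The numbers belong to different calves, and same-numbered calves did not deviate together (r = 0.05, -0.04, -0.03 and -0.20). GREM1 kept its direction in all alternatives (-1.44 to -0.22). GLI1 was not tested where a TPM of 1 was asked of all 8 libraries.

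The other log2 fold changes that turned direction were as follows. With the mesenchyme level as a covariate they were 0.24 for GLI1, 0.069 for PTCH1, 0.79 for BMP4, 0.45 for RSPO3, 0.89 for WNT2B, 0.52 for WNT5A, 0.63 for FOXL1 and 0.046 for FST. The same covariate moved IHH from 0.22 to 1.62 (limma unadjusted p = 0.017, adjusted p = 0.21) and BMP5 from 0.09 to 1.06, with their direction kept. With the smooth muscle level they were 0.010 for GLI1, 0.26 for BMP4, 0.20 for RSPO3, 0.11 for WNT2B, 0.0048 for WNT5A and 0.11 for FOXL1. With the epithelial level they were -0.25 for IHH and -0.29 for BMP5, and with array weights -0.27 and -0.37. FOXL1 was at 0.043 with a pseudocount of 0.1, 0.0026 with median-ratio scaling and 0.013 with quantile normalization. On raw TPM the difference of means was -0.58 for IHH and -0.48 for BMP5.

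Leaving out 1 calf at a time gave -0.35 to 0.47 for IHH, -0.54 to 0.068 for BMP4, -0.36 to 0.27 for BMP5, -0.69 to 0.092 for RSPO3, -0.66 to 0.12 for WNT2B and -0.35 to 0.23 for FOXL1. Without CON4 the exact permutation p of GLI1 (-0.31), PTCH1 (-0.31), BMP5 (-0.36) and WNT2B (-0.66) was 0.029. CON4 was left out for its low values in these same genes, so this p is no support for a difference between the diets. Without CON4, r was 0.63 for IHH with GLI1, 0.68 for GLI1 with PTCH1, 0.55 for GLI1 with FOXL1 and 0.45 for FOXL1 with BMP5. The causes were not tested.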
